A study of Mus musculus with 4 samples.

Results

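The 40 genes described here carry glucose into the cell, run each step of glycolysis, move lactate and pyruvate, and regulate both ends of the pathway. They were taken by symbol from the 47729 genes of the table, and all 40 were found, each on a single row. The tumors were grafts of LLC cells, which derive from a Lewis lung carcinoma of the mouse, grown under the skin of the back of C57BL/6 mice and taken on day 5. In LLC-Chem tumors the cells had been transfected with a plasmid coding for a bioactive form of chemerin, a secreted protein that acts on leukocytes and endothelial cells, and LLC tumors came from cells without it. The labels call the LLC cells wild type, while the study also describes cells carrying the empty vector, and the vector of the cells behind these pools was not given. Each group was measured in 2 pools of 3 tumors, so 6 tumors per group were covered by 2 libraries. The transfected cells were collected as individual clones after drug selection, so a difference between clones and a difference made by chemerin cannot be told apart. Host cells of the graft were part of every pool.

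In glycolysis a cell takes up glucose, traps it by phosphorylation, splits it and oxidizes it to pyruvate, with a small yield of ATP and no need for oxygen. Pyruvate then enters the mitochondrion for oxidation or is reduced to lactate and exported. Tumors are known for running this pathway fast even with oxygen present, and low oxygen raises many of its genes through the transcription factor HIF. Several steps have isoenzymes from separate genes, such as the liver, muscle and platelet forms of phosphofructokinase, which differ in regulation and in the tissues that use them.

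Levels are given in RPM, the reads of a gene per 1000000 reads counted in that pool. RPM is not divided by gene length, so it compares pools for a gene and not genes with each other. The fitted depth ran from 28470000 to 33990000 reads per pool, and 3 reads, used as the lower limit of detection, were worth 0.0883 to 0.105 RPM, which allows for counting error only. A gene was called where its difference between LLC-Chem and LLC passed an adjusted p of 0.05 in limma, a linear model fitted to log2(RPM + 0.5) of the 13694 genes that averaged 1 RPM or more over the pools. Fold changes are on that log2 scale, which understates the change of weakly expressed genes. Nothing in the labels says how independent the pools are beyond holding different tumors, and for 2 pools against 2 the smallest p of an exact two-sided permutation test is 0.333. Rarres2, the gene of chemerin, did not pass the threshold (log2 fold change 0.08, adjusted p = 0.541).

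All 40 genes passed the filter on low values. Of these, 9 (22.5%) were called higher in LLC-Chem, beside 9.54% of all genes tested, and 2 (5.00%) were called lower, beside 13.5% of all genes tested. The 9 higher genes were Eno2, Pcx, Pfkfb2, Pdk1, Pfkm, Gpi1, Gys1, Hk2 and Pfkl, and the 2 lower genes were G6pdx and Pfkfb4. Hk2, Gpi1, Eno2, Pdk1 and Gys1 stand in a hypoxia list that the study picked from these same samples, so that all 5 of them were called is not independent evidence of a direction. Outside that list, 4 of 35 genes (11.4%) were called higher, a share near the background.

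In 21 of the 40 genes (52.5%) both LLC-Chem pools lay above both LLC pools, beside 33.1% of all genes tested. In 13 (32.5%) both lay below, beside 39.3%, and in 6 the groups overlapped. Hk2, Gpi1, Eno2, Pdk1 and Gys1, from the study's list picked from these same samples, were all among the 21. The median log2 fold change of the 40, these 5 included, was 0.17, beside -0.04 over all genes tested. It was 0.22 beside 0.00 with TMM scaling. With 1 pool left out it ran from 0.11 to 0.24, beside -0.06 to -0.02 over all genes tested. The 40 genes together took 1.37% and 1.36% of the reads of the LLC pools and 1.69% and 1.57% of those of the LLC-Chem pools. With any 1 pool left out, which leaves a group with a lone pool assumed to vary like the other group, 0 genes were called by limma, against 998 to 2359 higher and 1580 to 2823 lower at an unadjusted p under 0.05. Each of the 11 called genes kept the sign of its fold change in all 4 omissions, with adjusted p from 0.0548 to 0.280. All 11 calls, G6pdx included, were also lost when no filter on low values was used, with 14 of the 40 higher and 4 lower at an unadjusted p under 0.05.

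**Figure D1:**
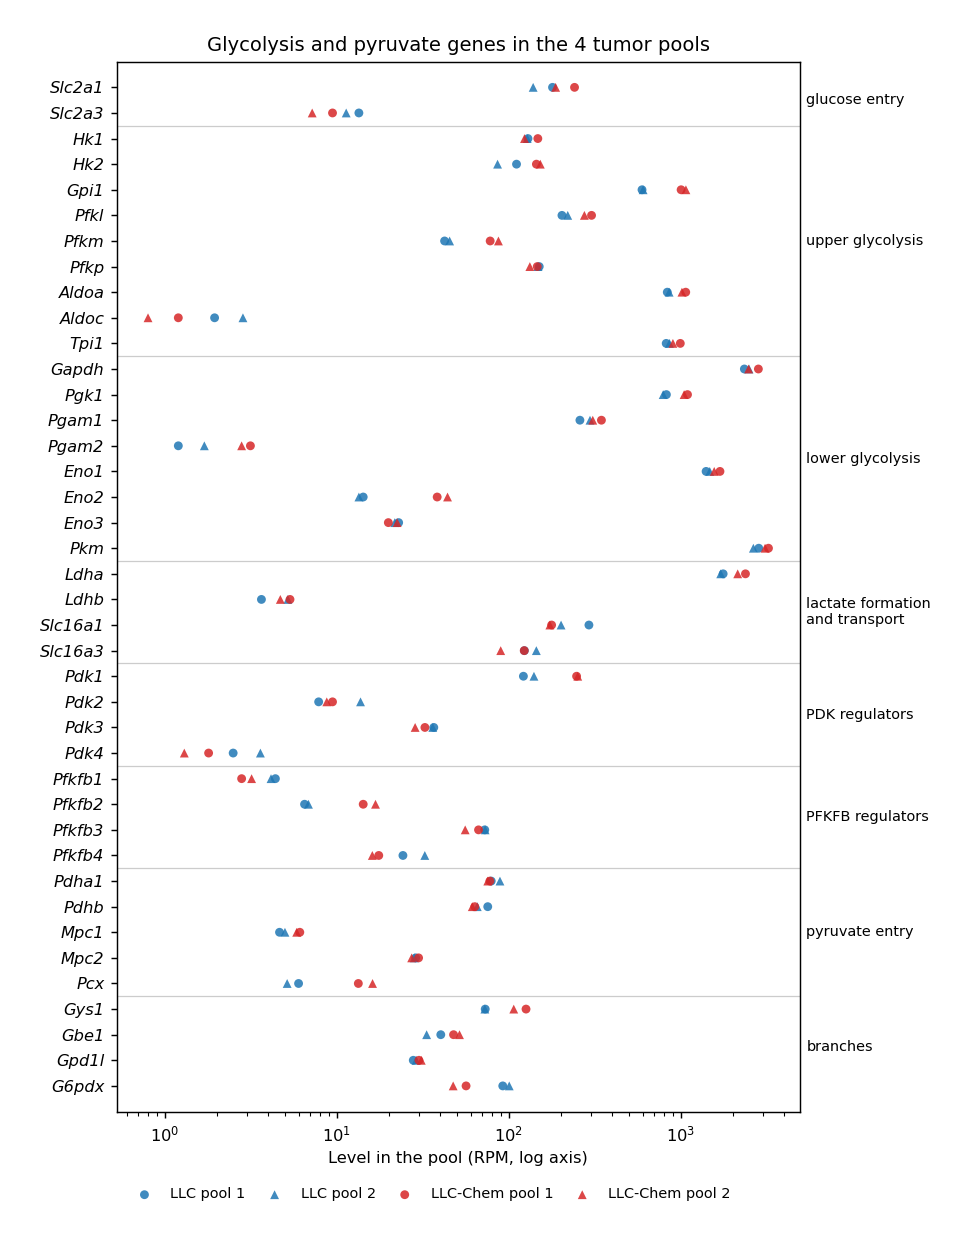
Level of each of the 40 genes in each of the 4 pools, in RPM on a log axis, with LLC pools in blue, LLC-Chem pools in red, and circles and triangles for pools 1 and 2 of a group. The groups stand clearly apart for Eno2, Pcx, Pfkfb2, Pfkm, Pdk1 and Gpi1 on the higher side and for G6pdx on the lower side, and RPM is not divided by gene length, so genes cannot be compared along the axis.

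Promoters of 5 of the called genes are printed because the letters ACGTG and GCGTG, the core of the site that HIF binds, were searched in them. The sequences are RefSeq windows of GRCm38.p6, from 250 bases before to 50 bases after a transcript start, and capitals mark every match on either strand. Eno2 (chr6:124769624-124769923, minus strand), the gene with the largest fold change of the 40, had no match. Pcx (chr19:4510222-4510521, plus strand) had 3 matches of ACGTG, of which 2 are the strands of a single CACGTG, the E-box with which ACGTG overlaps. Pfkfb2 (chr1:130715772-130716071, minus strand) had 2 matches of ACGTG, again the strands of a single CACGTG, and 2 of GCGTG, Pdk1 (chr2:71872974-71873273, plus strand) had 2 of GCGTG, and G6pdx (chrX:74428831-74429130, minus strand), which was lower in LLC-Chem, had 1 of each. For genes with several windows the window with the most matches is shown. The other window of Pcx and that of Pdk1 had 0 matches, and the other two of Pfkfb2 had 1 each.
Eno2: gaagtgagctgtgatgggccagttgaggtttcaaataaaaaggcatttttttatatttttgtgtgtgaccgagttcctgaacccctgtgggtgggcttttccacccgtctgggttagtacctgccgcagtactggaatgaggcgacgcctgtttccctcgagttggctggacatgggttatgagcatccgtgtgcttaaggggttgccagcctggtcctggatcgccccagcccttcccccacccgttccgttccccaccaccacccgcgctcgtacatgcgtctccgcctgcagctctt
Pcx: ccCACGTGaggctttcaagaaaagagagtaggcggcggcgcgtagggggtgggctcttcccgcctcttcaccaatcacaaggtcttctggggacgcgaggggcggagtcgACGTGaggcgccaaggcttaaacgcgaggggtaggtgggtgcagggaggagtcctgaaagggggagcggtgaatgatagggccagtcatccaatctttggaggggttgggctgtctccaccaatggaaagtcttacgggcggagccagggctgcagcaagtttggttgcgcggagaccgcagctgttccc
Pfkfb2: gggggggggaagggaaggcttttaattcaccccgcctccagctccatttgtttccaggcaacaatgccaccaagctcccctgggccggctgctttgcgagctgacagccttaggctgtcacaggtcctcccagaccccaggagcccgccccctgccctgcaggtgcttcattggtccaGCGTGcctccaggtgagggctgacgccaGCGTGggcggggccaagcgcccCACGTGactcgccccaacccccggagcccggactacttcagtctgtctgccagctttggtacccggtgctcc
Pdk1: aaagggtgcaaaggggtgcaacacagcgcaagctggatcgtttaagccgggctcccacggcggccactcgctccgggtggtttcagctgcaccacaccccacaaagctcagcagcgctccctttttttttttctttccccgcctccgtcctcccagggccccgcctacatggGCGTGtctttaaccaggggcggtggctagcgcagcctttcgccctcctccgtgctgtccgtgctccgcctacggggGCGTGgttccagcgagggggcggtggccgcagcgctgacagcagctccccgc
G6pdx: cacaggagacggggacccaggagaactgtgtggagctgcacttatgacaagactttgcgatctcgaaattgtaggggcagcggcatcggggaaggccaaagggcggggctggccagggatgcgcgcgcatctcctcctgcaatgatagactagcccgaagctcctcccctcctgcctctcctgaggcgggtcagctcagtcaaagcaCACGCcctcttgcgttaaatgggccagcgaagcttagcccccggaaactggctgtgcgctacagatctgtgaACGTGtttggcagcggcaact

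At least 1 of the motifs was in 43 of 60 windows of the genes (71.7%), beside 43.8% of all 32851 windows of the same length. Of all windows, 19.6% held ACGTG, 32.4% held GCGTG and 7.15% held CACGTG. Windows were found for 39 of the 40 genes, and Slc2a3 was not matched. Among the genes called higher, 10 of 16 windows (62.5%) held a motif, and Eno2, Gpi1 and Gys1 had none in any window. Among the genes not called, 31 of 42 windows (73.8%) held a motif, so the genes called higher did not carry it in a larger share of windows. A match is a string of letters and not a bound site, and the windows were not matched on base composition.

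In the upper part of glycolysis, from glucose trapping to the split into triose phosphates, 4 of 9 genes were higher in LLC-Chem. Hk2 and Gpi1 of the study's hypoxia list were among the 4, and the median log2 fold change of the 9 was 0.30. The background for this count and the later counts by role or level is again the 9.54% of all genes tested that were called higher and the 13.5% called lower. By limma 0 were lower, against 1 at an unadjusted p under 0.05 and 0 by edgeR and DESeq2. Gpi1 (ENSMUSG00000036427, chr7:34201330-34230336, minus strand) encodes the isomerase that converts glucose phosphate to fructose phosphate. Its level was 594 and 603 RPM in LLC and 1003 and 1069 RPM in LLC-Chem. The groups did not overlap, and the gap was far wider than the spread within either group (1.73 times the mean, log2 fold change 0.79 with a standard error, SE, of 0.12, adjusted p = 0.0172 from limma). The call ended with the replicate number fitted as a block (adjusted p = 0.0514 from limma).

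Hexokinases trap glucose in the cell, and 1 of the 2 in this set was higher. Hk2 (ENSMUSG00000000628, chr6:82725025-82774454, minus strand), the form that many tumors induce, measured 110.8 and 86 RPM in LLC and 144.6 and 152.4 RPM in LLC-Chem. Both LLC-Chem pools lay above both LLC pools, although the LLC pools themselves stood apart (log2 fold change 0.60 with an SE of 0.14, adjusted p = 0.0382 from limma). The call of Hk2 ended in limma without the trend in eBayes (adjusted p = 0.0708) and with the replicate number fitted as a block (0.0694). Hk1, the form of most tissues, measured 129 and 128 RPM in LLC and 147 and 123 RPM in LLC-Chem. Its groups overlapped, and its log2 fold change of 0.07 (95% confidence interval -0.23 to 0.36, adjusted p = 0.683) became -0.06 without the first LLC-Chem pool.

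Phosphofructokinase catalyzes the committed step of the pathway, and 2 of its 3 genes were called higher. Pfkm, the muscle form (ENSMUSG00000033065, chr15:98092589-98132451, plus strand), measured 42.3 and 45.3 RPM in LLC and 77.9 and 87.0 RPM in LLC-Chem. The groups were well separated (1.88 times the mean, log2 fold change 0.90 with an SE of 0.11, adjusted p = 0.0128 from limma). Of the skeletal muscle markers, Ckm and Myh4 had no reads in any of the 4 pools, while Tnnt3 was called higher at 1.05 and 1.75 against 3.15 and 4.6 RPM. The other markers of the list were too low to test, with Acta1 at 0.25 and 0.50 RPM in LLC and 0.15 and 0.10 RPM in LLC-Chem and Mylpf at 0.65 to 1.05 RPM over the pools. Pfkl, the liver form (ENSMUSG00000020277, chr10:77986947-78010083, minus strand), measured 203.6 and 220.0 RPM in LLC and 302.5 and 274.9 RPM in LLC-Chem. Its groups did not overlap (log2 fold change 0.45 with an SE of 0.11, adjusted p = 0.0400 from limma). This call too ended in limma without the trend (adjusted p = 0.0741) and with the replicate number as a block (0.0971). Pfkp, the platelet form, measured 150 and 148 RPM in LLC and 146 and 132 RPM in LLC-Chem, a log2 fold change of -0.10 (95% confidence interval -0.35 to 0.15).

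Aldolase splits the sugar bisphosphate, and neither of its genes was called by limma. Aldoa, the main form of muscle and of most tumors, measured 834 and 855 RPM in LLC and 1067 and 1014 RPM in LLC-Chem (log2 fold change 0.30, adjusted p = 0.138). DESeq2 on recovered reads called it higher (adjusted p = 0.0197). Aldoc, the brain form, was near the filter at 1.95 and 2.85 RPM in LLC and 1.2 and 0.80 RPM in LLC-Chem. Its log2 fold change was -0.95, with a 95% confidence interval of -1.65 to -0.24 and an adjusted p of 0.0621. Tpi1, which interconverts the triose phosphates, gave 0.17 on the log2 scale (adjusted p = 0.371).

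Lower glycolysis, from triose phosphate to pyruvate, held the largest fold change of the 40 but a single call among 8 genes. Eno2 (ENSMUSG00000004267, chr6:124760053-124769673, minus strand), the enolase isoenzyme best known from neurons, measured 14.2 and 13.4 RPM in LLC and 38.3 and 44.0 RPM in LLC-Chem. Both LLC-Chem pools were far above both LLC pools, at 2.97 times the mean (log2 fold change 1.54 with an SE of 0.13, adjusted p = 0.00909 from limma). Its log2 fold change ran from 1.44 to 1.63 when 1 pool was left out.

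Of the 4 neuron markers, Tubb3, a neuronal tubulin, was high enough to test and was called lower at 25.8 and 15.8 against 2.80 and 2.20 RPM. Rbfox3 did not exceed 0.15 RPM in any pool, Snap25 measured 0.25 and 0.45 RPM in LLC and 0.10 RPM in both LLC-Chem pools, and Syp measured 0.70 and 0.50 RPM in LLC and 0.95 and 0.55 RPM in LLC-Chem, with overlap. The part of neurons in the value of Eno2 was not tested. The ubiquitous enolase Eno1 measured 1401 and 1472 RPM in LLC and 1687 and 1562 RPM in LLC-Chem (log2 fold change 0.18, adjusted p = 0.419). The muscle enolase Eno3 measured 22.9 and 21.7 RPM in LLC and 19.9 and 22.4 RPM in LLC-Chem (log2 fold change -0.07, adjusted p = 0.692), and its groups overlapped. Its sign turned, to 0.01, without the first LLC-Chem pool.

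Phosphoglycerate mutase was measured through 2 genes, and neither was called. Pgam1 measured 259 and 296 RPM in LLC and 345 and 308 RPM in LLC-Chem (log2 fold change 0.23, adjusted p = 0.204). Pgam2, the muscle form, measured 1.2 and 1.70 RPM in LLC and 3.15 and 2.80 RPM in LLC-Chem, without overlap (log2 fold change 0.84 with an SE of 0.24, adjusted p = 0.0562). Gapdh, Pgk1 and Pkm, which oxidize the triose and form ATP, had log2 fold changes of 0.13, 0.41 and 0.21 and were not called by limma. The call of Pgk1 depended on the scaling and the tool, with an adjusted p of 0.0721 from limma as deposited, 0.0477 with TMM and 0.0511 with median-of-ratios factors, and of 0.0447 from edgeR and 0.000937 from DESeq2 on recovered reads.

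**Figure D2:**
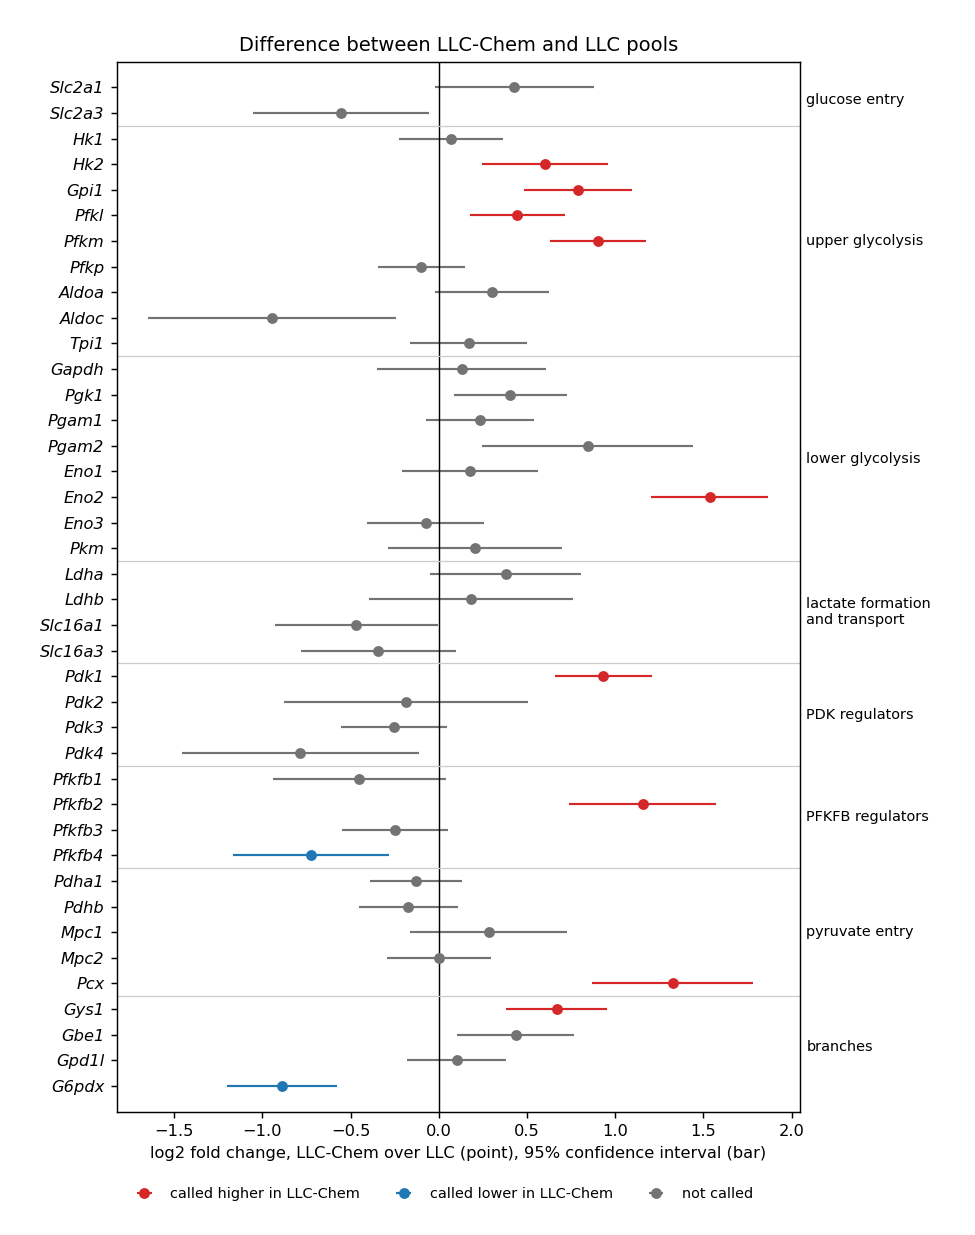
Log2 fold change of LLC-Chem over LLC for each of the 40 genes, as a point with its 95% confidence interval from limma as a bar, in red where called higher, blue where called lower and gray where not called. The 9 higher genes run from 0.45 for Pfkl to 1.54 for Eno2 and are spread over 6 of the role groups listed on the right.

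Pyruvate dehydrogenase kinases shut pyruvate out of mitochondrial oxidation by phosphorylating pyruvate dehydrogenase, and 1 of the 4 was called. Pdk1 (ENSMUSG00000006494, chr2:71873224-71903858, plus strand), a known HIF target, measured 121.5 and 140.0 RPM in LLC and 247.7 and 251.6 RPM in LLC-Chem. The LLC-Chem pools were nearly equal and stood at 1.91 times the LLC mean (log2 fold change 0.93 with an SE of 0.11, adjusted p = 0.0126 from limma). Its 3 relatives had negative fold changes that did not pass the threshold.

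Pdk3 measured 36.6 and 36.1 RPM in LLC and 32.5 and 28.5 RPM in LLC-Chem (log2 fold change -0.25, adjusted p = 0.172). Pdk4, the form that fasting induces in muscle, measured 2.50 and 3.60 RPM in LLC and 1.80 and 1.30 RPM in LLC-Chem (log2 fold change -0.79, adjusted p = 0.0857). Both LLC-Chem pools lay below both LLC pools in these genes. Pdk2 measured 7.85 and 13.7 RPM in LLC and 9.44 and 8.75 RPM in LLC-Chem, with overlap, and its log2 fold change of -0.19 turned to 0.20 without the second LLC pool.

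The genes through which pyruvate enters mitochondrial metabolism held 1 call among 5. Pcx (ENSMUSG00000024892, chr19:4510472-4621752, plus strand) encodes pyruvate carboxylase, which makes oxaloacetate from pyruvate. It measured 6.00 and 5.15 RPM in LLC and 13.3 and 16.1 RPM in LLC-Chem, at 2.65 times the mean (log2 fold change 1.33 with an SE of 0.18, adjusted p = 0.0144 from limma). The groups did not overlap. Adipocytes are rich in this enzyme, and of their 4 markers Cfd was called higher, at 1.40 RPM in both LLC pools and 15.1 and 4.10 RPM in LLC-Chem. Adipoq and Plin1 had means 2.62 and 3.27 times those of LLC, with overlap between groups, and Fabp4 had 0.655 times, also with overlap. The summed level of the 4 was 28.04 and 19.99 RPM in LLC and 39.7 and 14.2 RPM in LLC-Chem, and the median log2 fold change of the 3 that were tested was 0.87. The part of adipocytes in the value of Pcx was not tested. Pdha1 and Pdhb, subunits of pyruvate dehydrogenase, and Mpc1 and Mpc2, the mitochondrial pyruvate carrier, had log2 fold changes from -0.17 to 0.28 and adjusted p from 0.273 to 0.990.

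The PFKFB enzymes make and break down the sugar bisphosphate that activates phosphofructokinase. By limma 1 of the 4 was called higher and 1 lower, and the lower call was lost with TMM scaling and in edgeR. Pfkfb2 (ENSMUSG00000026409, chr1:130689182-130729253, minus strand), known from heart, measured 6.50 and 6.85 RPM in LLC and 14.2 and 16.8 RPM in LLC-Chem. It stood at 2.33 times the LLC mean, with a gap well beyond the spread within groups (log2 fold change 1.16 with an SE of 0.17, adjusted p = 0.0150 from limma).

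Pfkfb4 (ENSMUSG00000025648, chr9:108991778-109032228, plus strand), first described in testis, measured 24.2 and 32.5 RPM in LLC and 17.5 and 16.1 RPM in LLC-Chem. Both LLC-Chem pools lay below both LLC pools (log2 fold change -0.72 with an SE of 0.18, adjusted p = 0.0411 from limma), but the call ended with TMM scaling (adjusted p = 0.0529), with median-of-ratios scaling (0.0502), without the trend (0.0600) and in edgeR's quasi-likelihood test on recovered reads (0.0506). Pfkfb3, the form most often described in tumors, measured 72.5 and 72.8 RPM in LLC and 66.7 and 55.8 RPM in LLC-Chem (log2 fold change -0.25, adjusted p = 0.173). Pfkfb1, the liver and muscle form, measured 4.40 and 4.15 RPM in LLC and 2.80 and 3.20 RPM in LLC-Chem (log2 fold change -0.45, adjusted p = 0.145). Pfkfb3 and Pfkfb1 did not pass the threshold, although the LLC-Chem pools lay below the LLC pools in both.

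The 2 glucose transporters gave 0 calls by limma, edgeR and DESeq2, and 1 of them, Slc2a3, had an unadjusted p under 0.05. Slc2a1, the glucose transporter of most tumor cells, measured 179.5 and 138.5 RPM in LLC and 240.9 and 187.1 RPM in LLC-Chem (log2 fold change 0.43, 95% confidence interval -0.02 to 0.88, adjusted p = 0.134). Slc2a3, the glucose transporter best known from neurons and leukocytes, measured 13.4 and 11.3 RPM in LLC and 9.44 and 7.20 RPM in LLC-Chem (log2 fold change -0.55, adjusted p = 0.0959). The groups did not overlap in either gene, and the sign was opposite.

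Lactate formation and transport held 4 genes and 0 calls by limma, against 1 gene (Slc16a1) at an unadjusted p under 0.05, 0 calls by edgeR and 1 by DESeq2. Ldha, which reduces pyruvate to lactate, gave 0.38 on the log2 scale (95% confidence interval -0.05 to 0.81, adjusted p = 0.153), and DESeq2 on recovered reads called it (adjusted p = 0.00461). Ldhb, which favors the reverse direction, had a log2 fold change of 0.18, with overlap between groups. This value ran from -0.05 to 0.41 when 1 pool was left out. The lactate transporters Slc16a1 and Slc16a3 had log2 fold changes of -0.47 and -0.34 with adjusted p of 0.118 and 0.195.

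Among the genes of branches from glycolysis, 1 was higher and 1 lower. Gys1 (ENSMUSG00000003865, chr7:45434844-45456619, plus strand), the glycogen synthase of muscle and most other tissues, measured 72.9 and 72.6 RPM in LLC and 125.9 and 106.8 RPM in LLC-Chem. The LLC pools were nearly equal and both LLC-Chem pools were above them (1.60 times the mean, log2 fold change 0.67 with an SE of 0.11, adjusted p = 0.0204 from limma). Gbe1, the glycogen branching enzyme, had a log2 fold change of 0.44 and an adjusted p of 0.0664, which fell to 0.0449 with TMM and 0.0488 with median-of-ratios scaling. Gpd1l, a relative of glycerol phosphate dehydrogenase, gave 0.10 on the log2 scale (adjusted p = 0.521).

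G6pdx (ENSMUSG00000031400, chrX:74409483-74429194, minus strand) encodes the dehydrogenase that commits glucose to the pentose phosphate pathway, a source of NADPH. It measured 92.2 and 100.5 RPM in LLC and 56.4 and 47.5 RPM in LLC-Chem. Both LLC-Chem pools lay far below both LLC pools, at 0.539 times the mean (log2 fold change -0.89 with an SE of 0.12, adjusted p = 0.0144 from limma). Leukocytes express this gene strongly, and the summed level of the macrophage markers was 1687 and 2095 RPM in LLC and 1446 and 936 RPM in LLC-Chem, while that of the neutrophil markers was 171 and 106 RPM in LLC and 40.03 and 16.8 RPM in LLC-Chem. Their part in the value of G6pdx was not tested. In such bulk samples, fewer cells of a type and less RNA per cell cannot be told apart.

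Within families, isoenzymes can be compared once RPM is divided by the length of a gene's merged exons. Of the 4 pyruvate dehydrogenase kinases, Pdk1 made up 47.2% and 48.0% of the family's RPM per kilobase in the LLC pools and 66.3% and 69.4% in the LLC-Chem pools. The share of Pdk3 was 43.2% and 37.7% in LLC and 26.4% and 23.9% in LLC-Chem. The gap between Pdk1 and Pdk3 was thus wider in LLC-Chem, without overlap. Pdk2 and Pdk4 together took the rest, with shares of at most 11.6% and 2.74% in any pool.

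Pfkfb2 had 5.41% and 5.17% of the PFKFB family in LLC and 13.0% and 16.8% in LLC-Chem. Pfkfb4 had 30.1% and 36.5% in LLC and 23.9% in both LLC-Chem pools, while Pfkfb3 kept the largest share of every pool, from 52.7% to 58.5%. In phosphofructokinase, Pfkm had 23.3% and 23.6% in LLC and 29.3% and 33.8% in LLC-Chem, and Pfkp had 20.6% and 19.2% in LLC and 13.7% and 12.8% in LLC-Chem. The share of Pfkl overlapped between groups, from 53.4% to 57.3%. Hk2 had 55.1% and 49.0% of the 2 hexokinases of this set in LLC and 58.4% and 63.9% in LLC-Chem. Hk3 was left out of these shares, so those of Hk1 and Hk2 among all hexokinases were lower. It measured 56.5 and 51.0 RPM in LLC and 35.9 and 23.5 RPM in LLC-Chem. Its merged exons span 3682 bases, beside 5969 for Hk2.

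Among the genes of this set, a single gene held nearly all of the enolases, phosphoglycerate mutases, aldolases, lactate dehydrogenases and glucose transporters in each pool. The lowest such share was 92.9% for Eno1. Eno2, for all its fold change, was 1.09% and 0.989% of the enolases in LLC and 2.44% and 2.99% in LLC-Chem, and Pgam2 was at most 2.11% of its family. Aldoa made up 99.7% to 99.9% of the aldolases and Ldha 99.4% to 99.6% of the lactate dehydrogenases. Slc2a1 had 96.5% and 96.2% of the 2 glucose transporters of this set in LLC and 98.1% and 98.2% in LLC-Chem. Its share among all glucose transporters was lower, since Slc2a8 and Slc2a6 were left out. Slc2a8 measured 16.7 and 21.4 RPM in LLC and 17.8 and 17.0 RPM in LLC-Chem. Slc2a6 measured 7.25 and 9.69 RPM in LLC and 6.25 and 3.50 RPM in LLC-Chem. The monocarboxylate transporters were split, with Slc16a1 at 74.0% and 62.6% of the pair in LLC and 63.4% and 69.9% in LLC-Chem, and the groups overlapped. With 2 pools per group the exact two-sided permutation test gave p = 0.333 or more for every share, the smallest value it can give.

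Shares depend on the length used. With the mean length of coding transcripts in place of merged exons, the difference of Pdk1 was 19.7 percentage points instead of 20.2 and that of Pfkfb2 was 11.5 instead of 9.62. The order of the hexokinases turned, with Hk1 at 75.6% of the pair in LLC instead of 48.0%. So did that of Pfkm and Pfkp, with LLC means of 11.5% and 38.2% instead of 23.4% and 19.9%, and LLC-Chem means of 17.3% and 28.3% instead of 31.6% and 13.3%. The share of Slc16a1 in LLC was 43.7% instead of 68.3%. Pdk3 had an LLC mean of 35.5% instead of 40.4%, beside 51.7% instead of 47.6% for Pdk1. The difference of Pfkl went from -1.49 to 4.12 percentage points and that of Pfkfb3 from 0.676 to -3.04, so no direction can be given for these.

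**Figure D3:**
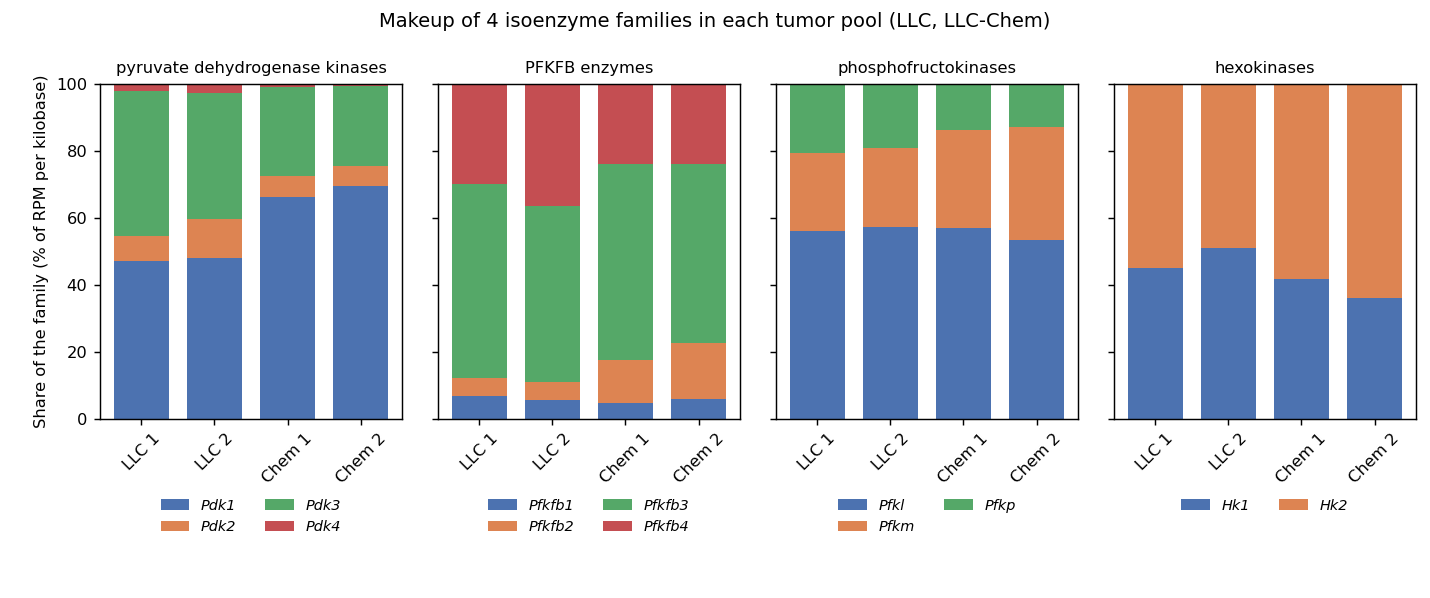
Share of each isoenzyme in its family's RPM per kilobase of merged exons, as stacked bars from 0 to 100% for each of the 4 pools, in 4 families. The hexokinase bars hold Hk1 and Hk2 only, without Hk3. Pdk1 goes from 47.2% and 48.0% in the LLC pools to 66.3% and 69.4% in the LLC-Chem pools, and Pfkfb2 and Pfkm take larger shares in both LLC-Chem pools.

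The 8 genes with a mean above 500 RPM, a limit chosen after the values were seen, were Gpi1, Aldoa, Tpi1, Gapdh, Pgk1, Eno1, Pkm and Ldha. All 8 had positive log2 fold changes, from 0.13 for Gapdh to 0.79 for Gpi1 with a median of 0.25, and in 7 of them both LLC-Chem pools lay above both LLC pools, an order seen in 33.1% of all genes tested. By limma 1 of the 8, Gpi1, was called. With TMM scaling and by edgeR Pgk1 was called as well, and DESeq2 called 4, adding Aldoa and Ldha. The wide intervals of the others reached below 0, except for Pgk1 (0.08 to 0.73). Of the 22 genes from 20 to 500 RPM, 6 were higher and 2 lower, and of the 10 genes under 20 RPM, 2 were higher and 0 lower by limma, against 3 lower at an unadjusted p under 0.05 and 0 by edgeR and DESeq2.

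**Figure D4:**
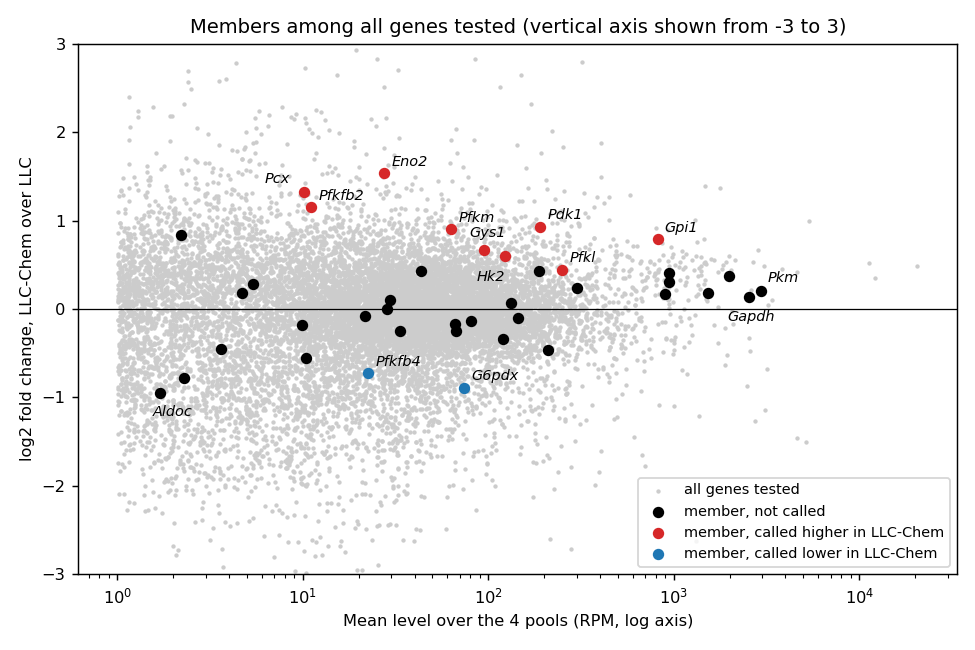
Log2 fold change of LLC-Chem over LLC against the mean level in RPM on a log axis, with the 13694 genes tested in gray and the 40 genes as larger points in red (called higher), blue (called lower) or black (not called). The genes above 500 RPM lie just above 0 with Gpi1 higher at 0.79, and 37 of the genes tested lie outside the vertical range of -3 to 3.

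Some of the 40 genes share sequence with other genes, and the authors' counting may have split or dropped such reads. In 7 genes over 20% of the 50-base words of the exons also stand in another gene, with 53.9% for Pgk1, 36.2% for Pgam1, 26.3% for Mpc1, 26.0% for Eno1, 25.8% for Pkm, 25.1% for Gapdh and 21.0% for Ldhb. The closest partner of 4 of the 7 is a processed pseudogene, and 213 pseudogenes share words with Gapdh. By limma 0 of these 7 were called, with Pgk1 called under TMM scaling as given above. In 7 genes over 10% of the exon bases lie under another gene, Pkm and Mpc1 again among them, and 4 of those genes were called, with 11.5% in Gpi1, 10.7% in Pfkm, 19.5% in Pfkfb2 and 13.6% in G6pdx. Since strand was not given for the counting, their values are less certain than those of Pdk1, Pcx, Hk2 and Pfkfb4, which shared no word with another gene. Words and overlaps come from GENCODE, while the authors counted on an Ensembl annotation. Gm49759, the gene over Pkm, was not among the deposited genes, so its overlap may not have affected the counting.

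Other genes of the same pathways were listed to set the 40 beside them. Of 56 such genes, 37 passed the filter on low values, and 1 was called higher and 5 lower, at a median log2 fold change of -0.17. The 5 lower genes are the same share of the 37 as the 13.5% of all genes tested that were called lower, and the single higher gene is a smaller share than the 9.54% called higher. Pdp1, the phosphatase that reactivates pyruvate dehydrogenase and so opposes the kinases, measured 24.1 and 22.2 RPM in LLC and 33.4 and 35.2 RPM in LLC-Chem (log2 fold change 0.56, adjusted p = 0.0312 from limma). It was higher in both LLC-Chem pools, as Pdk1 was. With the replicate number fitted as a block in limma the call of Pdp1 ended (adjusted p = 0.0739), while that of Pdk1 held (0.0254).

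The 5 lower genes were Emb, Hk3, Taldo1, Pygl and Ppp1r3d. Emb, a partner protein of lactate transporters, measured 158.9 and 125.7 RPM in LLC and 68.0 and 49.1 RPM in LLC-Chem (log2 fold change -1.28, adjusted p = 0.0163 from limma). Bsg, the main partner of Slc16a1 and Slc16a3, which is named here after its values were seen, measured 575 and 565 RPM in LLC and 601 and 535 RPM in LLC-Chem, with overlap (adjusted p = 0.967 from limma). Hk3, the hexokinase of leukocytes, measured 56.5 and 51.0 RPM in LLC and 35.9 and 23.5 RPM in LLC-Chem (log2 fold change -0.87, adjusted p = 0.0398 from limma). Taldo1, which acts in the pentose phosphate pathway that G6pdx opens, measured 184.1 and 155.9 RPM in LLC and 113.0 and 98.4 RPM in LLC-Chem (log2 fold change -0.68, adjusted p = 0.0250 from limma). The groups did not overlap in Emb, Hk3 or Taldo1.

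Pygl, the liver glycogen phosphorylase, measured 47.2 and 85.8 RPM in LLC and 33.2 and 25.3 RPM in LLC-Chem, and Ppp1r3d, which targets a phosphatase to glycogen, measured 2.85 and 2.95 RPM in LLC and 1.45 and 1.5 RPM in LLC-Chem. Both were called lower by limma (adjusted p = 0.0483 and 0.0489) and both lost the call with TMM scaling (0.0596 and 0.0539). Of the 7 tested genes of the pentose phosphate pathway beside G6pdx, 1 was lower and 0 were higher by limma, with a median log2 fold change of -0.18, and 0 were higher at an unadjusted p under 0.05 or by edgeR and DESeq2.

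Markers of other cell types moved between the groups together with these genes. All 5 endothelial markers were called lower, with a summed level of 198.0 and 137.8 RPM in LLC and 46.0 and 24.8 RPM in LLC-Chem. All 3 tested of 5 neutrophil markers and 1 of 5 macrophage markers (Csf1r, a call lost with TMM scaling) were lower by limma, at the summed levels given beside G6pdx. Of the macrophage markers, 3 were lower by DESeq2, 0 by edgeR and 4 at an unadjusted p under 0.05 in limma. Of the fibroblast markers, 2 of 5 were lower (Col1a1 and Col1a2) and 1 higher (Pdgfra, a call lost in edgeR), and DESeq2 called 3 higher, adding Dcn and Lum. Their summed level, to which the collagen genes gave the most reads in each pool, was 11800 and 20339 RPM in LLC and 8559 and 6869 RPM in LLC-Chem, while their median log2 fold change was 0.72. T cell markers summed to 0.550 to 6.35 RPM, keratinocyte markers to 2.05 to 4.45 RPM, skeletal muscle markers to 2.35 to 5.35 RPM and neuron markers to 2.85 to 26.8 RPM, the last mostly Tubb3. Erythroid markers, a measure of blood in the sample, were not called and ranged from 3.55 to 115.6 RPM. No list of LLC cell markers was used, so the share of tumor cells in a pool was not measured. The part of these cell types in the differences of the 40 genes was not tested.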

How the data were processed

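RNA was extracted from pools of 3 tumors and sequenced by the authors, with 2 pools of LLC and 2 of LLC-Chem tumors taken on day 5. The authors mapped the reads to GRCm38.p4 with STAR, assigned them to genes with HTSeq and deposited RPM for each gene and pool. The versions of these tools and the strand setting were not given in the sources used here. In the deposited RPM a step of 0.04997 divides 100% of the values without remainder (tolerance 0.05 of a step), which points to counts scaled to 20000000 reads and rounded up. Library totals were fitted to the values on a grid of 1000 reads and the reads recovered to within rounding.

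Differences were tested with limma 3.58.1 (lmFit, eBayes with trend, two-sided) in R 4.3.3 on log2(RPM + 0.5), with Benjamini-Hochberg adjustment over the 13694 genes averaging 1 RPM or more, called at an adjusted p under 0.05. RPM are not counts, so the count tests, edgeR 4.0.16 and DESeq2 1.42.0 on recovered reads, were alternatives. The others were pseudocounts of 0.1 and 1, TMM and median-of-ratios scaling, no filter, a mean of at least 5 RPM, eBayes without trend, the replicate number as a block and the omission of single pools. A fit with the pairing crossed was added after seeing the data. The fit was tested on simulated data.

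The 40 genes, the gene lists and the markers were chosen with earlier results of these data known. Values per pool are given for genes called or with an absolute log2 fold change of at least 0.5 and for their isoenzyme partners, and the rest by fold change. Coordinates and exon lengths are from GENCODE on GRCm38, which held 47310 (99.1%) of the 47729 identifiers. The other LLC and chemerin experiments of the study were not analysed here. Shares, motif counts and figures came from Python 3.11.15 with scipy 1.17.1, pandas 2.3.3, numpy 2.4.6 and matplotlib 3.10.9.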

Additional observations from a re-analysis of the deposited data

How the results depend on the processing

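Of the 40 genes, 9 were called higher and 2 lower, beside 9.54% and 13.5% of all genes tested. Pseudocounts of 0.1 and 1 and the 5 RPM filter changed none of the calls they could test. The count of higher genes was 11 with TMM scaling, 10 with median-of-ratios scaling, 11 with edgeR, 13 with DESeq2 and 8 without the trend. Of all genes tested, 11.4%, 10.9%, 11.4%, 13.7% and 6.51% were higher in these settings, in that order. The count of lower genes was 1 with TMM scaling, 1 with median-of-ratios scaling, 1 with edgeR on recovered reads, 1 without the trend and 1 with the replicate block, since Pfkfb4 was lost in each. Of all genes tested, 12%, 12.3%, 11.8%, 9.28% and 7.77% were lower in these settings, in that order. Without the trend Hk2 and Pfkl were lost as well and Pgam2 was gained, and DESeq2 added Aldoa, Pgk1, Ldha and Gbe1. With no filter on low values, 26260 genes entered both the fit and the adjustment. Of the 40, 0 were then higher and 0 lower by limma, against 14 and 4 at an unadjusted p under 0.05. Over all genes 1 was higher and 0 lower, against 3394 and 4003.

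Deviations from the group mean of pools that share a replicate number had a correlation of -0.140 across genes. This value alone cannot tell whether pools with the same number were handled together. With the replicate block, 549 genes were higher and 1064 lower, and 6 of the 40 were higher, with Hk2, Gpi1 and Pfkl lost. With the crossed pairing, added after seeing the data, 1579 genes were higher and 2320 lower, with 10 and 3 of the 40.

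Leaving out 1 pool gave 0 to 0 calls by limma in each direction, among all genes and among the 40, of which 8 to 13 were higher and 1 to 6 lower at an unadjusted p under 0.05. Over these omissions the log2 fold change of Hk1 ran from -0.0596 to 0.197, of Eno3 from -0.158 to 0.00834 and of Pdk2 from -0.571 to 0.200. The shares of Pfkl and Pfkfb3 changed sign with the length used. Depth was not the limit for genes of some RPM, since 3 reads are worth at most 0.105 RPM, but 2 pools per group leave wide intervals.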
